A study of Nicotiana with 12 samples.

Results

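ME1 and ME2, which encode malic enzymes, and FDH, which encodes formate dehydrogenase, were followed across Nicotiana leaves that differed in genotype and in water supply. The members are all probe sets with the symbol ME1, ME2 or FDH in the probe annotation, which gave 3 probe sets, 1 per gene, of 10101 tested. They were chosen by their measured differences between these same groups, so their values are given as a description. Where their calls in the limma fit are counted, the counts are not a test of them. The probe sets were Les.251.1.S1_at for ME1 (NCBI Gene 544164), Les.3773.1.S1_at for ME2 (NCBI Gene 543522) and Les.275.1.S1_at for FDH (NCBI Gene 544250). Genome coordinates, transcripts and probe sequences were not used here.

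The 4 groups were wild type (WT) and the transgenic PSARK::IPT genotype, called IPT here, each kept over 45 days on a daily supply per pot of 1000 mL (watered) or 300 mL (stressed). Each group had 3 biological replicates with 1 array each, 12 arrays in all, from leaves of plants about 10 weeks old. The transgene name joins IPT to the SARK promoter, from a receptor kinase gene that is known to become active in maturing and senescing leaves. IPT encodes isopentenyltransferase, an enzyme that makes cytokinin. The labels do not say how many transformed lines the IPT plants represent, and no probe set was named IPT, so no transgene level was at hand as a check on the labels.

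Malic enzyme splits malate oxidatively into pyruvate and carbon dioxide and passes the electrons to NADP or NAD, and plants hold forms of it in the cytosol, plastids and mitochondria. In leaves of C3 plants such as tobacco and tomato it draws on stored malate and supplies NADPH and pyruvate. Formate dehydrogenase is a mitochondrial enzyme that oxidises formate to carbon dioxide and makes NADH, and its transcript is known in potato to accumulate in leaves under drought and other stresses. Which cofactor and compartment belong to the proteins of ME1 and ME2 is not given by the annotation used here.

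The array was made for tomato and the RNA came from Nicotiana, so differences were taken between groups within the same probe set. Levels are set beside the array medians only as a rough guide. RNA of related family members can bind the same probes, so ME1 and ME2 cannot be taken as free of signal from each other or from other malic enzyme transcripts. In leaf RNA as in other bulk samples, fewer cells of a type and less RNA per cell cannot be told apart. The median log2 value of an array was 3.38 to 3.45, and arrays of the same group correlated at 0.982 to 0.992 across probe sets. All 7 leaf marker genes, of light-harvesting and photosystem II proteins, stood above the median of every array, and 0 of 5 fruit and flower markers did. Precision is limited by the number of arrays.

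The poly-A controls, bacterial transcripts added before labelling, moved with the groups. The signal of their 3' probe sets minus that of their 5' probe sets, called the end difference here, is larger where labelling reached less far along a transcript. It was 2.23 ± 0.08 (log2, SD, n = 3) in watered and 4.45 ± 0.87 in stressed leaves of WT, and 2.79 ± 0.43 and 3.59 ± 0.10 in those of IPT. Their mean level was 9.90 ± 0.03 in watered WT and between 7.38 and 8.44 on every other array. In each of the 4 comparisons of group pairs, this end difference gave p = 0.1 in an exact permutation test (two-sided), which cannot go lower with 3 arrays a side. Control probe sets for leaf transcripts moved too: with stress, the end difference was higher by 0.71 in WT and 0.56 in IPT for GAPDH, by 1.72 and 0.74 for EF1a, by 0.93 and 0.81 for actin and by 0.11 and 0.32 for ubiquitin. In these stress comparisons the exact permutation test gave p = 0.1 for all but actin in IPT (0.3) and ubiquitin in WT (0.5). Between genotypes, IPT relative to WT, the end difference of ubiquitin was -0.58 watered and -0.37 stressed. That of EF1a was 0.09 watered and -0.89 stressed. For GAPDH it was 0.28 watered and 0.13 stressed, and for actin 0.04 and -0.08. The exact permutation test gave p = 0.1 for both ubiquitin values and for EF1a in stressed leaves. For the other genotype values the exact permutation test gave p from 0.3 to 0.9.

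The malic enzyme gene ME1 stood lowest in IPT leaves whatever the water supply. In watered WT its log2 values were 10.40, 10.36 and 10.34 for replicates 1 to 3. In stressed WT they were 11.06, 10.99 and 10.97. In watered IPT they were 8.38, 8.49 and 8.46, and in stressed IPT 8.60, 8.52 and 8.51. The order of the group means was stressed WT, watered WT, stressed IPT, watered IPT, and no array of a group overlapped another group. The spread within a group was small, with SDs between 0.03 and 0.06, and the nearest neighbours were the IPT groups, parted by only 0.02 between the closest arrays.

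Between the genotypes ME1 was 3.80-fold lower in watered IPT than in watered WT (log2 difference -1.92, SE 0.10) and 5.51-fold lower in stressed IPT than in stressed WT (-2.46, SE 0.10). Stressed WT stood 1.56-fold above watered WT (0.64, SE 0.10). Stressed IPT stood 0.10 above watered IPT (SE 0.10), with a 95% interval from -0.12 to 0.32. The stress difference in IPT minus that in WT was -0.54 (SE 0.15).

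The other malic enzyme gene, ME2, was also lower in IPT, and its stressed arrays parted from its watered ones in IPT while they overlapped in WT. Its log2 values for replicates 1 to 3 were 8.41, 8.33 and 8.56 in watered WT and 8.70, 8.50 and 8.66 in stressed WT. They were 6.97, 7.09 and 6.93 in watered IPT and 7.58, 7.54 and 7.50 in stressed IPT. The WT groups overlapped, whereas every stressed IPT array lay above every watered IPT array and below every WT array.

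ME2 was 2.71-fold lower in watered IPT than in watered WT (log2 difference -1.44, SE 0.11) and 2.11-fold lower in stressed IPT than in stressed WT (-1.08, SE 0.11). Stressed IPT stood 1.46-fold above watered IPT (0.54, SE 0.11), and stressed WT 0.18 above watered WT (SE 0.11, 95% interval -0.06 to 0.42). The stress difference in IPT minus that in WT was 0.36 (SE 0.16). In this last measure ME1 at -0.54 and ME2 at 0.36 had opposite signs, and limma called neither at an adjusted p under 0.05. Whether these values of ME1 and ME2 differ was not tested.

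FDH, the formate dehydrogenase gene, was lower in IPT leaves too, but its stressed WT arrays were spread widely. Its log2 values for replicates 1 to 3 were 7.73, 7.77 and 7.72 in watered WT and 7.61, 6.77 and 7.26 in stressed WT. They were 5.95, 5.98 and 5.79 in watered IPT and 5.61, 5.72 and 5.75 in stressed IPT. All WT arrays lay above all IPT arrays, and the SD was 0.42 in stressed WT against 0.02 in watered WT. The IPT groups had SDs of 0.10 watered and 0.08 stressed. Within each genotype the stressed arrays lay below the watered ones, with gaps of only 0.11 in WT and 0.04 in IPT between the closest arrays.

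FDH was 3.55-fold lower in watered IPT than in watered WT (log2 difference -1.83, SE 0.16) and 2.87-fold lower in stressed IPT than in stressed WT (-1.52, SE 0.16). The stress difference was -0.52 (SE 0.16) in WT and -0.21 (SE 0.16, 95% interval -0.56 to 0.13) in IPT, and the IPT value minus the WT value was 0.31 (SE 0.23). The WT stress difference varied with the stressed WT array left out. It was -0.30 without stressed WT replicate 2, -0.72 without stressed WT replicate 1, and between -0.55 and -0.51 without any other single array.

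**Figure D1:**
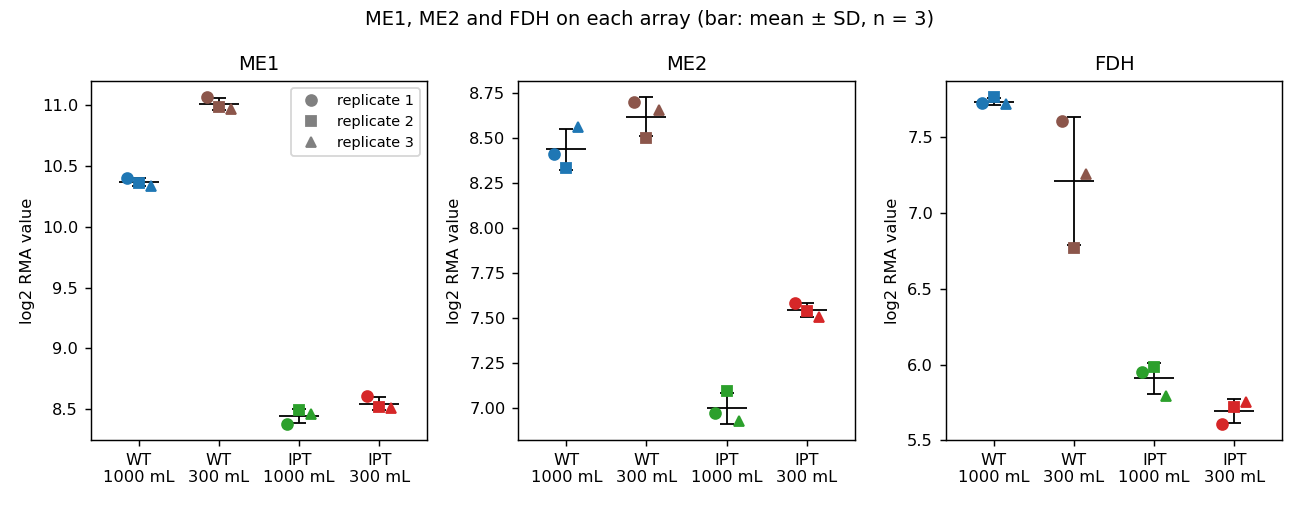
The log2 RMA value of each array (points, shaped by replicate) is plotted for ME1, ME2 and FDH in the 4 groups, each panel on its own axis, with bars for the mean ± SD of 3 arrays. WT arrays lie above IPT arrays in all 3 panels, and FDH in stressed WT spreads from 6.77 to 7.61.

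**Figure D2:**
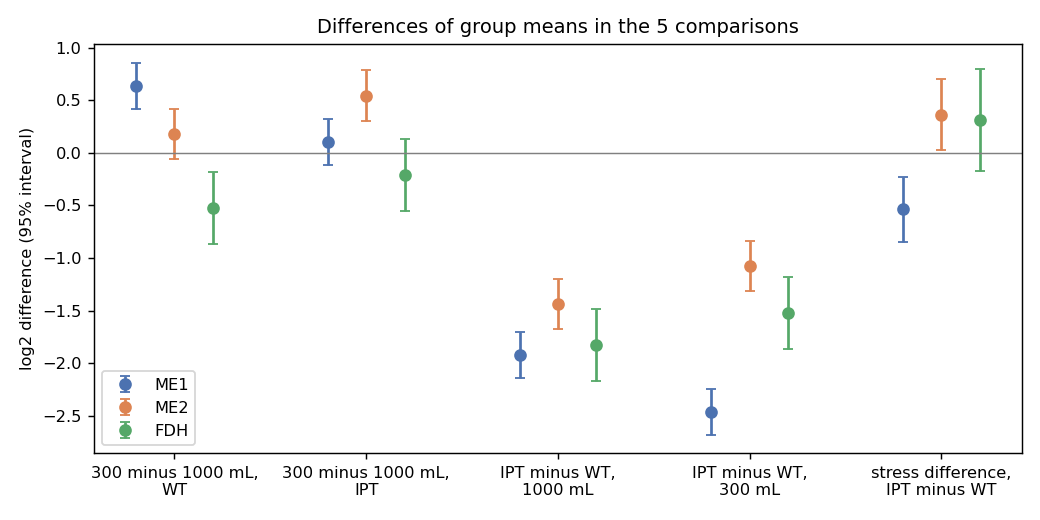
The log2 differences of ME1, ME2 and FDH are plotted for the 5 comparisons, with 95% intervals from limma. The genotype differences lie between -2.46 and -1.08, and the stress differences between -0.52 and 0.64.

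The values of the poly-A controls are given beside FDH because both moved on the same arrays. In stressed WT, the end difference of the poly-A controls was 4.10, 5.44 and 3.82 on the arrays where FDH stood at 7.61, 6.77 and 7.26. In watered IPT it was 2.81, 2.35 and 3.21 where FDH stood at 5.95, 5.98 and 5.79. The array with the largest end difference had the lowest FDH in both groups, and also in stressed IPT, where replicate 1 had 3.69 and FDH at 5.61. The same held in watered WT, where replicate 3 had 2.32 and FDH at 7.72, though FDH spanned only 0.04 there. ME2 too was lowest on the array with the largest end difference in stressed WT and watered IPT. In watered WT and stressed IPT, ME2 was highest on that array. With the end difference as a covariate over all 12 arrays, the stress difference of FDH was 0.29 (SE 0.27) in WT and 0.079 (SE 0.15) in IPT, so both signs turned. The genotype differences of FDH kept their sign, at -1.62 (SE 0.14) watered and -1.83 (SE 0.15) stressed. However, the end difference overlapped in none of the group pairs compared, lying at 2.17 to 2.32 in watered WT and 3.82 to 5.44 in stressed WT. The slope of the covariate in this fit comes from arrays of the same group, whose end differences spread most in stressed WT (SD 0.87). It is carried across the gaps between groups, so the adjusted values rest on extrapolation and cannot decide the part of the end difference. The poly-A level was not fitted.

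Under the same covariate the malic enzyme genes kept their signs. The stress difference of ME1 in WT was 0.67 (SE 0.22), with its limma call lost, and that in IPT 0.11 (SE 0.12). That of ME2 was 0.64 (SE 0.13) in IPT, and in WT it moved from 0.18 to 0.44 (SE 0.23). The IPT value minus the WT value was -0.56 (SE 0.19) for ME1 and moved from 0.36 to 0.20 (SE 0.20) for ME2. The genotype differences of ME1 were -1.92 and -2.48, and those of ME2 -1.37 and -1.18, watered and stressed. The poly-A controls also differed between the stressed genotypes, with levels of 7.38 to 8.12 in WT and 8.29 to 8.44 in IPT (difference 0.52) and an end difference of -0.86 in IPT relative to WT. The leaf markers moved with genotype in the other direction: 3 of 7 passed as higher in IPT when watered and 6 of 7 under stress. Of all 10101 probe sets, 778 passed as higher in IPT when watered and 832 under stress. The mean of the leaf markers lay between 9.83 and 9.88 on stressed WT arrays and between 10.37 and 10.47 on stressed IPT arrays. With water stress, 1 of the 7 leaf markers passed as lower in WT and 0 in IPT. Of 11 markers of dividing cells 1 passed as higher in IPT in each genotype comparison, and of 5 fruit and flower markers 0 passed. The part of these cell markers and of the poly-A controls in the genotype differences of ME1, ME2 and FDH was not tested. Of these measures only the end difference entered a fit, with the limit given above.

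**Figure D3:**
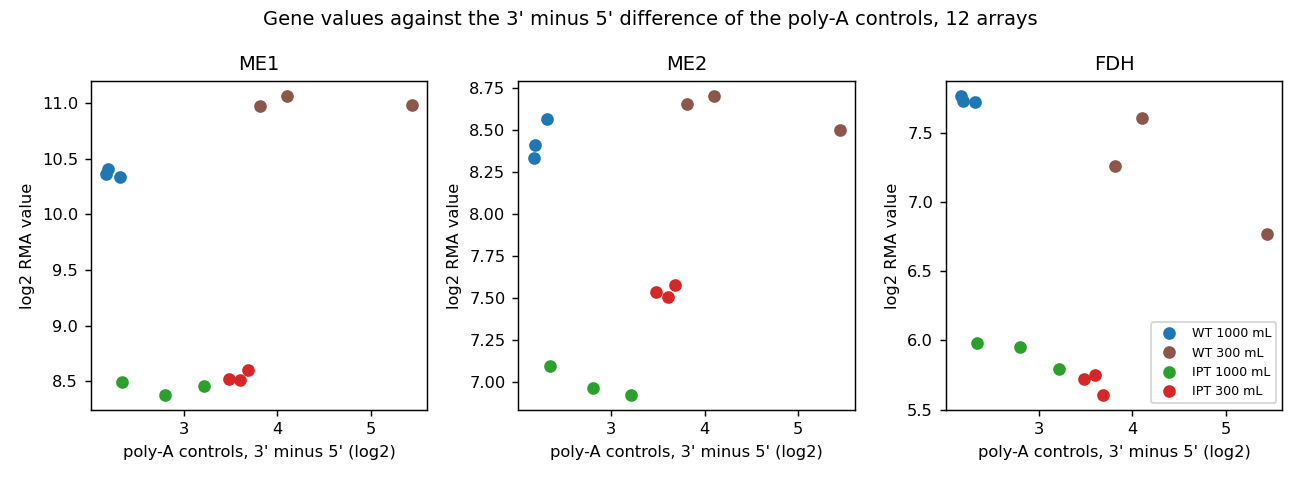
The log2 value of ME1, ME2 and FDH (vertical axes) is plotted against the poly-A end difference, 3' minus 5' (horizontal axes, log2), for 12 arrays, coloured by group. FDH and ME2 have their lowest stressed WT values, 6.77 and 8.50, on the array at 5.44. ME1 on that array lies with its group at 10.99.

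Set against all probe sets, the genotype differences of the 3 genes lay in the lower tail. In the fit across all 10101 probe sets, limma called 3 of the 3 genes lower in IPT when watered, where 13.8% of all probe sets were called in either direction. It called 3 of 3 lower under stress, where 16.7% were called. Counted from the most negative difference, ME1 ranked 26, FDH 29 and ME2 56 between watered genotypes, and ME1 ranked 15, FDH 63 and ME2 129 between stressed ones. In both genotype comparisons all 3 had groups that did not overlap, as had 31.5% of all probe sets when watered and 30.0% under stress.

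For water stress in WT, limma called ME1 higher and FDH lower, with 11.3% of all probe sets called, and these 2 had groups that did not overlap, as had 27.7% of all. For water stress in IPT it called ME2 higher, with 1.36% called, while 3 of 3 had groups that did not overlap, as had 22.6% of all. Of these calls, that of FDH passed in only 1 of 12 fits without 1 array and that of ME2 in 6 of 12. For the difference between the stress effects it called 0 of 3, with 1.90% called, while ME1 and ME2 had an unadjusted p under 0.05 in that fit, as had 1432 of all 10101 probe sets. The 3 genes were chosen with these comparisons known, so the counts are not evidence about them. The comparisons also share arrays, each group entering both a stress and a genotype comparison.

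**Figure D4:**
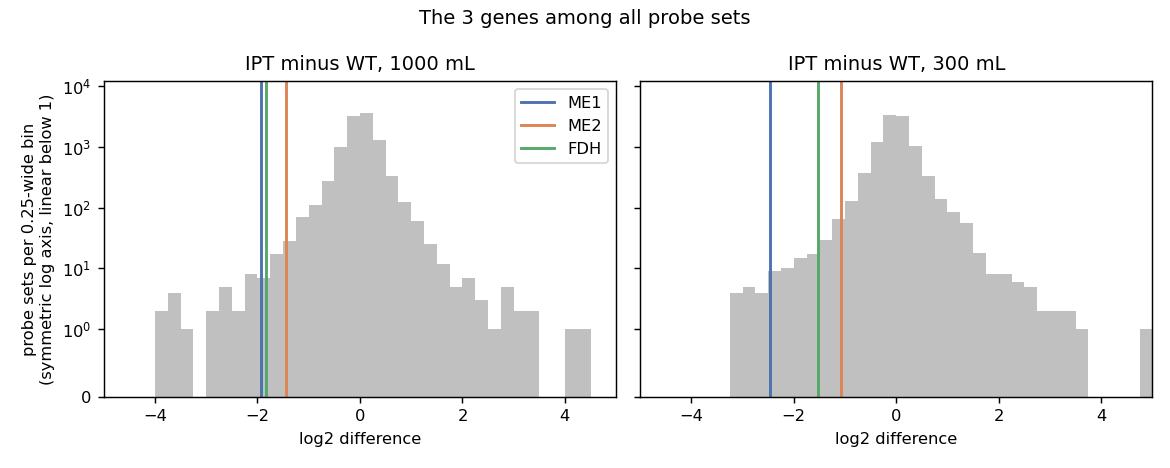
Histograms give the number of probe sets (symmetric log axis, linear below 1) per log2 difference between IPT and WT, watered on the left and stressed on the right, with vertical lines for ME1, ME2 and FDH. ME1 lies farthest out in both panels, at -1.92 and -2.46.

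The neighbouring reactions were followed in 12 named genes from lists of malate and tricarboxylic acid cycle, glycolysis and pyruvate, methyl-group and folate, and mitochondrial electron transport genes, which were matched by symbol. A further list of genes of NADPH supply matched 0 symbols. Between watered genotypes 5 of the 12 passed at a limma adjusted p under 0.05, 1 higher and 4 lower in IPT, against 13.8% of all probe sets. Between stressed genotypes 5 passed, 2 higher and 3 lower, against 16.7% of all. The median log2 difference of the 12 was 0.01 watered and -0.09 stressed, against 0.02 and -0.01 over all probe sets.

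Malate dehydrogenases interconvert malate and oxaloacetate, and the named ones did not all go the same way. The cytosolic gene cMDH was lower in watered IPT (log2 difference -0.67, SE 0.15, limma adjusted p = 0.00528) and in stressed IPT (-0.75, SE 0.15, adjusted p = 0.00171). Its watered values lay between 4.92 and 5.08 in WT and between 4.04 and 4.54 in IPT. The gene listed as mdh was lower as well, at -0.34 watered (SE 0.11, limma adjusted p = 0.04998) and -0.35 stressed (SE 0.11, adjusted p = 0.0400). The mitochondrial gene mMDH1 was higher in IPT, at 0.43 watered (SE 0.11, limma adjusted p = 0.0174) and 0.35 stressed (SE 0.11, adjusted p = 0.0429).

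These calls were not equally firm. That of cMDH held in all 12 fits without 1 array, in both genotype comparisons. That of mdh passed in 2 of 12 when watered and in 4 of 12 under stress, and that of mMDH1 in 8 of 12 and in 2 of 12. The other probe set of mMDH1 stood at 0.10 watered and 0.06 stressed and did not pass.

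The plastid and glyoxysomal genes chMDH and gMDH were added when the annotation was read, and they are given without a test. Between genotypes chMDH stood at 0.30 (SE 0.13) watered and 0.39 (SE 0.13) stressed, IPT minus WT. The values of gMDH were -0.20 (SE 0.10) and -0.32 (SE 0.10). Neither changed by more than 0.083 on the log2 scale with stress in WT.

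PPCK1 and PPCK2, kinases that activate phosphoenolpyruvate carboxylase and so act on the supply of malate, did not pass in any comparison. Between genotypes PPCK1 stood at 0.35 watered and 0.22 stressed, and PPCK2 at 0.21 and 0.38. Both lay below all array medians, at 1.92 to 3.30. Of 3 glycolysis and pyruvate genes, ADH2 for alcohol dehydrogenase, PGH1 for enolase and TPI for triose-phosphate isomerase, 0 passed in any comparison, and their differences lay between -0.29 and 0.30 over the 4 comparisons of group pairs.

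SAM1, which encodes an S-adenosylmethionine synthetase of methyl-group metabolism, had the largest differences between genotypes among the 12. Its watered values were 9.60 to 9.77 in WT and 8.78 to 8.89 in IPT, and its stressed values 9.73 to 10.49 and 8.90 to 9.01. It was lower in watered IPT (-0.84, SE 0.16, limma adjusted p = 0.00163) and in stressed IPT (-1.25, SE 0.16, adjusted p = 2.76e-05), and both calls passed without any single array. The related SAM3 stood at -0.28 and 0.01 and did not pass.

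AOX1a and UCP act in the mitochondrial inner membrane, the first as an alternative oxidase and the other as an uncoupling protein. AOX1a was lower in watered IPT (-0.54, SE 0.16, limma adjusted p = 0.0311) and stood at -0.04 between stressed genotypes. UCP was higher in stressed IPT (0.48, SE 0.12, limma adjusted p = 0.0119) and stood at 0.32 between watered genotypes without passing. Without 1 array, the AOX1a call held in 7 of 12 fits and that of UCP in 11, missing the threshold without stressed IPT replicate 2 (0.38, adjusted p = 0.0702). With the poly-A covariate UCP stood at 0.41 (adjusted p = 0.103).

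For water stress the counts were set beside those of all probe sets. In WT 1 of 12 passed, against 11.3% of all, namely SAM1, which was higher under stress (0.53, SE 0.16, limma adjusted p = 0.0400). Without 1 array that call held in 1 of 12 fits, and it turned to -0.10 with the poly-A covariate. AOX1a came next at -0.46 (SE 0.16, limma adjusted p = 0.0711), and in IPT 0 of 12 passed, against 1.36% of all. In IPT the smallest p of the malate genes belonged to mMDH1 at -0.15 and PPCK1 at 0.17. The largest stress differences in IPT among the 12 were those of UCP at 0.32, PGH1 at 0.30 and ADH2 at -0.29. The difference between the stress effects passed for 0 of 12, against 1.90% of all. It was largest for AOX1a, at 0.49.

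**Figure D5:**
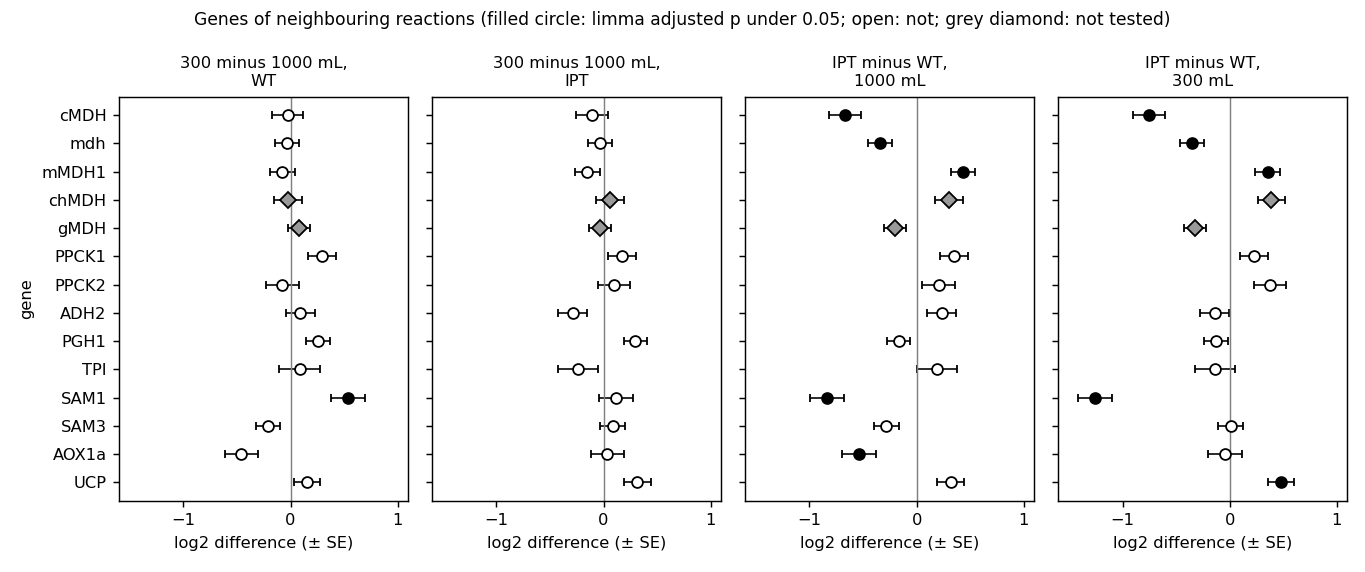
Log2 differences (± SE, limma) are plotted for 14 genes of neighbouring reactions in 4 comparisons, with filled circles at adjusted p under 0.05, open circles above it and grey diamonds for the untested chMDH and gMDH. SAM1 at -1.25 and cMDH at -0.75 lie farthest left between stressed genotypes.

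Genes with the most similar profile were looked for among named genes by the root mean square difference of log2 values over the 12 arrays, after centring each probe set on its own mean. Genes with a symbol starting with LOC and the members themselves were left out of this search. Of the rest, only genes whose SD over the arrays was at least 0.75 times that of the member were compared. ME1 lay closest to CrtR-b1, which encodes a beta-carotene hydroxylase (0.20), then to CIP2b (0.30) and to LE16, a lipid transfer protein gene (0.31), among 15 genes. ME2 lay closest to TSW12, another lipid transfer protein gene (0.23), then to LTC (0.29) and SAM1 (0.31), among 46. FDH lay closest to HSP17-6, a small heat-shock protein gene (0.33), then to TSW12 (0.35) and CrtR-b1 (0.39), among 22.

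Among themselves the members had root mean square differences of 0.52 between ME1 and ME2, 0.53 between ME1 and FDH and 0.45 between ME2 and FDH. The 7 genes named for likeness were lower in IPT in both genotype comparisons, which the search itself favours, with log2 differences between -2.43 and -0.84. With stress in IPT their differences lay between -0.31 and 0.12, against 0.54 for ME2. With stress in WT their differences lay between -0.46 and 0.59, a likeness the search also favours. There LE16 stood at 0.59 against 0.64 for ME1, and HSP17-6 at -0.46 against -0.52 for FDH. The arrays and the normalization are shared by all these values, and nothing follows from likeness about function.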

How the data were processed

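Leaf RNA was extracted with Trizol, labelled with biotin and hybridised to the Affymetrix Tomato Genome Array, per the labels' protocols. The deposited log2 values were made by the authors with RMA, per the submitters' processing notes. Their log2 scale was judged from a range of 1.28 to 13.84. RMA brings the probe intensities of all arrays to a common distribution, so shifts of whole arrays are largely removed. Array medians of the deposited values still ran from 3.38 to 3.45. Its version and options: not given in the sources used here. Detection calls were not used here.

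The 108 control probe sets of 10209 were removed, and no dim ones were, so all 3 members stayed among the 10101 tested. An early tomato annotation gave 1 symbol to 909 probe sets (802 genes), several to 0 and none to 9192. In R 4.3.3, limma 3.58.1 (lmFit, eBayes) fitted the 4 group means on all 12 arrays (residual degrees of freedom 8, prior 7.99). Tests were two-sided, and calls were made under an adjusted p of 0.05 (Benjamini-Hochberg, all 10101 probe sets). A gene with several probe sets was counted by that of highest mean. The members and lists were chosen with earlier results of these data known.

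Named genes are all members, per list and comparison those called (at most 8) or else the 2 with the smallest p, and the 3 nearest profiles of each member. Gene descriptions were not used here, so lists matched symbols only. The poly-A measures used 36 probe sets of 4 transcripts (dap, lys, phe, thr). The fit was tested on simulated data. Alternatives were centring on array medians, quantile normalization, only the brighter probe sets, limma's array weights, a robust fit with an intensity trend, only the arrays compared, the replicate number as a block, the poly-A end difference as a covariate, all probe sets of a gene, and leaving out each array. Replicate numbers did not pair the arrays: same-numbered arrays of compared groups had deviations correlated at -0.05 to 0.07.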

Additional observations from a re-analysis of the deposited data

How the results depend on the processing

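The 6 genotype differences of ME1, ME2 and FDH kept their sign and their limma call in all 20 alternatives each. Over all 15 member differences, 294 of 297 alternative values kept their sign. The 3 that turned were all FDH with the poly-A covariate: 0.29 for stress in WT, 0.079 for stress in IPT and -0.21 for the difference of the stress effects; the cause was not tested. Under that covariate ME2 moved by more than the replicate SD to 0.44 for stress in WT, 0.64 in IPT, -1.18 between stressed genotypes and 0.20 for the difference of the stress effects, and FDH to -1.83 between stressed genotypes. Quantile normalization moved ME1 to 0.76 for stress in WT, -2.62 between stressed genotypes and -0.70 for the difference of the stress effects. Leaving out 1 array gave FDH values from -0.72 to -0.30 for stress in WT, from -1.74 to -1.32 between stressed genotypes and from 0.088 to 0.51 for the difference of the stress effects.

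Stress calls of members were less firm. That of FDH in WT passed in 1 of 12 fits that left out 1 array (adjusted p 0.00613 to 0.196) and in 4 of 8 other alternatives. That of ME2 in IPT passed in 6 of 12 (0.0147 to 0.101) and in 8 of 8, and missed the threshold without any 1 of the 6 IPT arrays. That of ME1 in WT passed in 12 of 12 and in 7 of 8, the exception being the poly-A covariate (0.67, adjusted p = 0.294). The difference of the stress effects of ME1 passed in 3 of 7, with quantile normalization, the brighter probe sets and the intensity trend.

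Of the 12 genes of neighbouring reactions, the count called for stress in WT was 0 with median-centring, with only the arrays compared, with the replicate block and with the poly-A covariate, and 2 with the brighter probe sets or the intensity trend. It was 0 to 1 without 1 array. Between watered genotypes it was 3 with only the arrays compared or the replicate block and 2 to 5 without 1 array. Between stressed genotypes it was 3 under these 2 settings, 2 with the poly-A covariate and 2 to 5 without 1 array. For the difference of the stress effects it was 0 to 1 without 1 array. SAM1 turned to -0.10 for stress in WT with the poly-A covariate. The fit with only the arrays compared equals the full fit for the difference of the stress effects and was not run again. The replicate block, whose numbers did not pair the arrays (13 of 36 closest matches had the same number), left the FDH stress call in WT at adjusted p = 0.0605 and kept every other member call. Under median-centring the calls between watered genotypes split into 606 higher and 743 lower, against 778 and 618, and for stress in WT 454 and 667, against 569 and 573. With the poly-A covariate 40 probe sets were called for stress in WT, against 1142, and 56 in IPT, against 137. Signal over background is unknown here.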

Other observations

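A pair of unnamed probe sets, Les.275.2.S1_at and Les.275.3.S1_at, share the stem of the FDH probe set in their identifiers, and the annotation gives them no gene. They were picked for that stem. Les.275.2.S1_at lay between 1.85 and 2.59 on the log2 scale on all 12 arrays, below every array median, and its groups overlapped in all 4 comparisons of group pairs. Les.275.3.S1_at lay between 3.12 and 3.44 in watered WT and between 3.67 and 4.01 in watered IPT, so it stood higher in IPT where FDH stood lower (log2 difference 0.61, SE 0.14, limma adjusted p = 0.00635). In stressed leaves it lay between 3.08 and 3.42 in WT and between 3.42 and 3.61 in IPT (0.24, SE 0.14, limma adjusted p = 0.281). These values lie near the array medians, and whether either probe set reads an FDH transcript was not tested.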
